A study of Homo sapiens with 4 samples.

Results

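Structural RNAs are short, stable noncoding RNAs that work as parts of RNA-protein particles, and 85 of them were described in Huh7 cells, a human hepatoma line. They were chosen by symbol and by count: of the 42169 gene rows of the deposited table, 3332 carried a symbol of a small nucleolar RNA (SNORA, SNORD), small Cajal body RNA (SCARNA), spliceosomal or U7 RNA (RNU), signal recognition particle or 7SK RNA (RN7S), RNase P or MRP RNA (RPPH1, RMRP), Y RNA (RNY) or vault RNA (VTRNA). Symbols ending in P, which mostly name pseudogenes, were left out, which left 869 rows, and 85 of these held at least 20 counts summed over the 4 libraries. The rule thus reads the level summed over all libraries and holds no term for the difference between clones. The ending in P also removed RMRP, a named gene of the pattern, so its values are given beside those of the set.

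Total RNA sequencing compared a control clone (clone 1) with a clone carrying a double knockout of Brf1 and TTP, called DKO (clone 18), with 2 libraries of each. TTP (ZFP36) and BRF1 (ZFP36L1) are related proteins that bind AU-rich elements of messenger RNAs and promote their decay. Both clones were kept in DMSO for 3 h, and actinomycin D, an inhibitor of transcription, was then given at 5 µg/ml for 10 min, and no cells without actinomycin D were analysed here. The extracts of 1 µg total RNA received ERCC spike-in RNA, ribosomal RNA was depleted, and strand-specific libraries were read from 1 end for 80 bases. Each genotype was represented by 1 clone, so the effects of clone and genotype cannot be told apart. Whether the 2 libraries of each are from separate cultures is not stated, and p-values reflect the spread among the libraries at hand, which could be technical.

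Gene counts per library ran from 9685798 to 16430228, and spike-in counts made up 0.946% to 2.10% of all counts. Neither targeted gene had less mRNA in the DKO (ZFP36 log2 fold change 0.48, adjusted p = 0.207; ZFP36L1 0.13, adjusted p = 0.775), so these levels do not check the knockout labels. Of hepatocyte markers such as ALB and APOB, 11 of 11 were counted in all 4 libraries, with summed levels of 25380 to 28200 CPM (counts scaled to the library size). Single markers did differ: AFP fell by 1.13 on the log2 scale (edgeR adjusted p = 0.0159), while APOH rose by 1.16 and TTR by 0.78 (edgeR adjusted p = 0.0036 and 0.0297). Of 11 markers of leukocytes, fibroblasts and endothelium, 8 stayed under 1 CPM on average and CD3E, VWF, CDH5 and KDR had no count at all. The markers above 1 CPM were all fibroblast genes: LUM (11.2 CPM on average), COL1A1 (6.82) and COL3A1 (5.05). The remaining fibroblast marker, DCN, averaged 0.097 CPM. Mitochondrially encoded RNAs made up 2.53% (control 1), 0.448% (control 2), 3.59% (DKO 1) and 1.16% (DKO 2) of gene counts, so libraries of 1 clone differed in this share by more than the clones did. The part of this difference in the results was not tested.

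Small nucleolar RNAs guide the chemical modification of other RNAs by base pairing. Box C/D RNAs direct ribose methylation, box H/ACA RNAs direct the conversion of uridine to pseudouridine, and both act mainly on ribosomal RNA in the nucleolus, while scaRNAs direct the same reactions on spliceosomal RNAs in Cajal bodies. Most human guide RNAs are cut out of the introns of host genes, whereas U4, U3, 7SL, Y and RMRP RNAs come from genes of their own. The U4 RNA pairs with U6 RNA in the spliceosome's precursor particle, and 7SL RNA is the scaffold of the signal recognition particle, which directs ribosomes to the endoplasmic reticulum.

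The set held 48 box H/ACA snoRNAs, 10 box C/D snoRNAs, 15 scaRNAs, 5 RNAs of the major spliceosome (RNU4-1, RNU4-2, RNU5A-1, RNU5B-1, RNU5E-1), the minor spliceosomal RNU6ATAC, the 7SL genes RN7SL2 and RN7SL3, the Y RNA RNY1 and 3 copies of 7SK whose symbols end in a digit (RN7SKP9, RN7SKP203, RN7SKP255). The other rows of the pattern without a final P held few reads: 625 had no count and 159 had 1 to 19. Just outside the limit lay SNORA77B with 19 counts and SNORA65 with 18, and just inside it lay SNORA54 with 20 and SNORA44, SNORA21B and SNORA38 with 21 each. RN7SK, RN7SL1, RPPH1, RNU1-1, RNU2-1, RNU6-1, RNU7-1, RNU11, RNU12, RNY4, VTRNA1-1, SNORD118 and SNORA73A were listed at 0 in all 4 libraries. Several of these are abundant in most human cells, so a 0 in the table is read as a row without assigned reads and not as an absent RNA.

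The sequences of the RNAs on which the comparison turns are shown here as they stand in GENCODE release 29 (hg38 positions, counted from 1), written as DNA and 5′ to 3′. The genes of U4 RNA come first, since their near identity bears on how their counts are read. RNU4-1 lies at chr12:120293097-120293237 and RNU4-2 at chr12:120291763-120291903, both on the minus strand and outside other genes of the annotation on that strand. They were identical at 137 of 141 positions (97.2%), and capitals mark the 4 differences (C37T, G88A, C99A and C113T, with the base of RNU4-1 first and positions counted from its 5′ end).
RNU4-1: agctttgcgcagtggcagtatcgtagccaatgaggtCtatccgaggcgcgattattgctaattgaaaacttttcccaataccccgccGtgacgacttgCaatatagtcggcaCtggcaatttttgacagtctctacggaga
RNU4-2: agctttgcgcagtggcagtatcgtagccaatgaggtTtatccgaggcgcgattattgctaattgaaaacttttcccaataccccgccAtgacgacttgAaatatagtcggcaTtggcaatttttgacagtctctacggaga
No stretch of 80 bases, the length of a read, occurred in both genes or in another annotated transcript, so a full read without errors can be placed on 1 of them.

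SNORA71C and SNORA71D are shown because they are neighbouring copies whose values in the DKO differed in size. They lie on the minus strand of chromosome 20 at chr20:38429670-38429803 and chr20:38433865-38433998, in introns of the noncoding gene SNHG17, and were identical at 116 of 134 positions (86.6%). Capitals mark the positions at which they differ, and no stretch of 80 bases was shared with each other or with another locus.
SNORA71C: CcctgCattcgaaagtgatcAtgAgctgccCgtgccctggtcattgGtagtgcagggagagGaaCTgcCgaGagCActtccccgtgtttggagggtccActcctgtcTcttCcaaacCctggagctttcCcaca
SNORA71D: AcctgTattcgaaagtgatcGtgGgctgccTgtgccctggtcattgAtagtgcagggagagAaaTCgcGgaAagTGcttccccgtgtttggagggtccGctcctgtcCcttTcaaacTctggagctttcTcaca

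The 4 other H/ACA RNAs that passed the test are SNORA23 (chr11:9428773-9428954, plus strand, in an intron of IPO7), SNORA53 (chr12:98599635-98599883, plus strand, inside SLC25A3 and overlapping an exon of one of its transcripts), SNORA8 (chr11:93732361-93732499, minus strand, inside TAF1D and likewise overlapping an exon) and SNORA12 (chr10:100237156-100237302, minus strand, in an intron of CWF19L1). Capitals mark the box that names the class, the letters ACA 3 bases before the end, where a script found them.
SNORA23: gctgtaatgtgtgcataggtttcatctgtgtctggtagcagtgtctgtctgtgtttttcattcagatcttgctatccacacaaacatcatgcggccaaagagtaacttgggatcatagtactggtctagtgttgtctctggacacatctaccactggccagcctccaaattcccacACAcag
SNORA53: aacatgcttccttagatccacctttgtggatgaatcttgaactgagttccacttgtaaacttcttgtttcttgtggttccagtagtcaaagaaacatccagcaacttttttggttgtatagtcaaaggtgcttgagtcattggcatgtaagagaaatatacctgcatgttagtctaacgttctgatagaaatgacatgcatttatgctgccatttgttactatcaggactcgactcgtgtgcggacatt
SNORA8: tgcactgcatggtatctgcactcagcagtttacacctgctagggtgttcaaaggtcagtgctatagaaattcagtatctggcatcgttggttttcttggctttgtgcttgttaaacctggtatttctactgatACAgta
SNORA12: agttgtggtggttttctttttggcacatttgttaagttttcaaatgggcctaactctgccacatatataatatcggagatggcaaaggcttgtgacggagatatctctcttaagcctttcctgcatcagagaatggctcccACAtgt
The letters ACA stood 3 bases before the end in 31 of the 48 H/ACA RNAs of the set (64.6%) and in 76 of 94 other SNORA rows with a sequence (80.9%). The box C/D letters TGATGA in the first 25 bases together with CTGA in the last 20 were found in 4 of 10 C/D RNAs of the set (40%) and in 183 of 265 other SNORD rows (69.1%), with only the transcript strand searched for either motif.

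Annotated length differed between the rows with and without counts among C/D RNAs. The 10 C/D members had a median length of 142 bases, and the C/D rows with no count had one of 78 bases. The corresponding medians for H/ACA RNAs were 135 and 132 bases. The whole set ran from 91 to 758 bases, with 83 members placed on 22 chromosomes and 2 symbols (SNORA16A and SCARNA4) that match more than 1 annotated gene. Of the 81 members whose sequence was searched, 71 shared no 80-base stretch with another locus. The 10 others included RN7SL2, which shared 83.7% of its stretches with RN7SL1, RN7SL3 and copies of 7SL, and SNORD3A, a gene of U3 RNA, which shared 63.8% of those of its shortest transcript with other U3 genes. Their counts are uncertain, because how reads matching several loci were handled is not given.

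The reads were spread very unevenly over the set. The median member held 105 counts in all, 14 held at least 1000, and RN7SL2 alone held 342468. Together the 85 RNAs took 0.853% (control 1), 1.00% (control 2), 0.571% (DKO 1) and 0.992% (DKO 2) of gene counts (95% exact binomial intervals of 0.847% to 0.858%, 0.997% to 1.01%, 0.566% to 0.575% and 0.987% to 0.997%, for counting error only). DKO replicate 1 had the lowest share and control replicate 2 the highest, and DKO replicate 2 lay between the control libraries. The mean share was 0.927% ± 0.106 in control and 0.781% ± 0.298 in DKO (SD, n = 2 each; exact 2-sided permutation p = 0.667, where 0.333 is the smallest possible). Without RN7SL2 the shares were 0.148%, 0.172%, 0.120% and 0.236% in the order control 1, control 2, DKO 1, DKO 2, so the order of the libraries changed and DKO replicate 2 became the highest. In bulk RNA, fewer cells that hold an RNA and less of it per cell cannot be told apart.

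**Figure D1:**
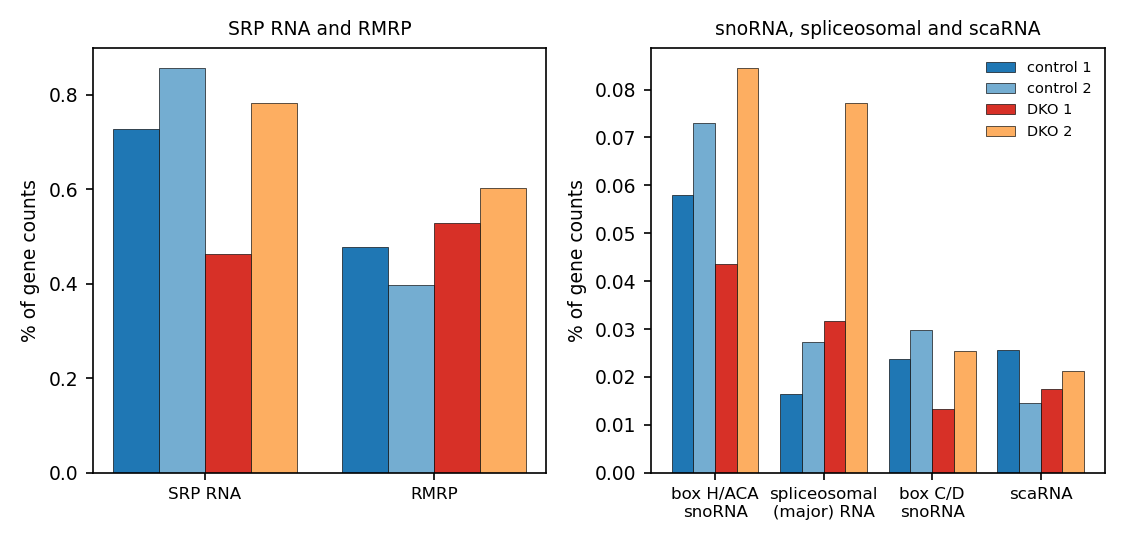
Share of gene counts (percent, vertical axis from 0) taken by the 7SL RNAs of the signal recognition particle (SRP RNA) and RMRP at left, and by 4 classes of the set at right, with 1 bar for each library. The bars of the major spliceosomal class are higher in both DKO libraries (0.0317% and 0.0772%) than in both control libraries (0.0165% and 0.0273%). RNU4-1 and RNU4-2 hold most counts of this class (804 and 763 of 1599 in control 1, 6482 and 6121 of 12682 in DKO 2). Its other members, RNU5E-1, RNU5A-1 and RNU5B-1, gave log2 fold changes of -0.96, -0.04 and -0.52. Per spike-in count the class overlaps between clones (0.0111 and 0.0286 in control, 0.0193 and 0.0360 in DKO). Bars of the other classes of the set overlap between clones.

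Levels of different RNAs were compared per kilobase of annotated length, as the mean of the 4 libraries. RN7SL2 led with 22920 CPM per kb. It was followed by SNORA73B, an H/ACA RNA of the U17 family that takes part in ribosomal RNA processing and not in modification, at 2351 CPM per kb. RNU4-1 and RNU4-2 came next at 1375 and 1322 CPM per kb, then RN7SL3 at 767.6, the C/D RNA SNORD17 at 290.9, SCARNA12 at 258.1 and the H/ACA RNA SNORA63 at 224.5. This order depends on the length used. SNORD3A stood at 161.4 CPM per kb on its annotated gene length of 699 bases, which is longer than its shortest transcript. By CPM alone SNORD3A was above SNORD17 (112.8 and 68.9 CPM). The class medians were far lower, at 11.2 CPM per kb for H/ACA RNAs, 34.7 for C/D RNAs and 24.5 for scaRNAs. RMRP, which is no member, stood near RN7SL2 at 19060 CPM per kb.

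**Figure D2:**
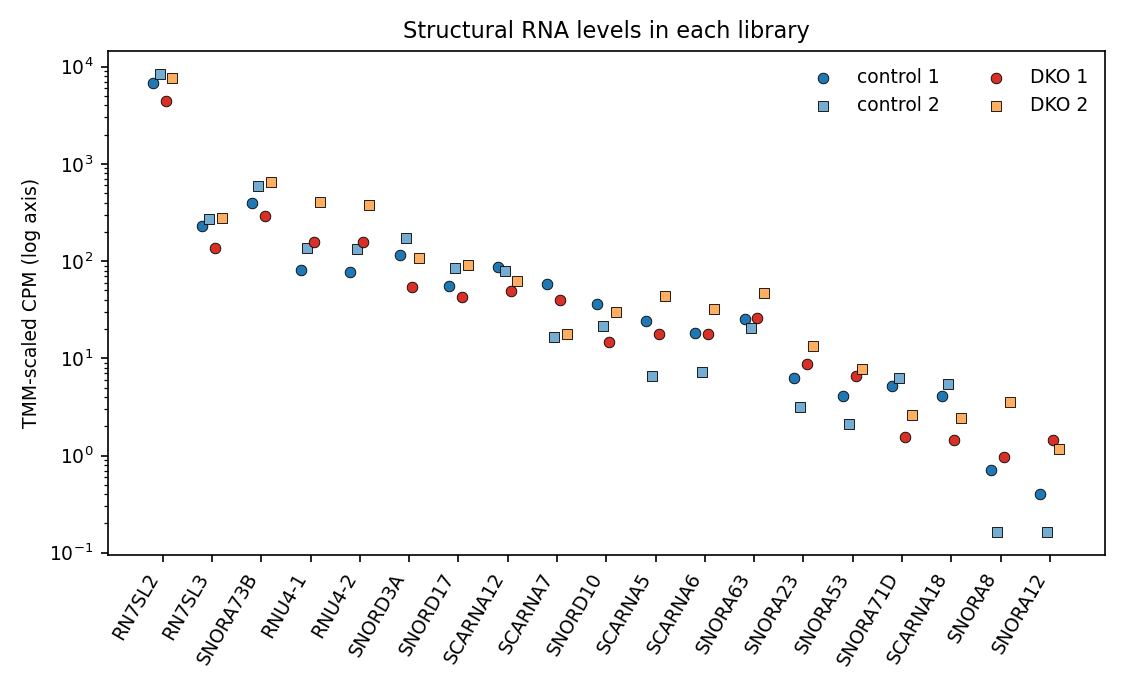
Level of 19 members in each library (CPM scaled by TMM factors, log axis), ordered roughly by abundance, with circles for replicate 1 and squares for replicate 2 of each clone. RNU4-1 and RNU4-2 are higher in both DKO libraries than in both control libraries, SNORA71D is lower, and SNORA73B and SCARNA7 differ more between libraries of a clone than between the clones' means.

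DKO was compared with control over all genes, and 67 of the 85 members passed the filter on low counts. The members that were not tested had at most 38 counts in all. Of 13359 genes tested, 718 passed an adjusted p under 0.05 by edgeR's quasi-likelihood test with Benjamini-Hochberg adjustment (5.37%), with 299 higher (2.24%) and 419 lower (3.14%) in the DKO. Among the 67 structural RNAs tested, 7 passed (10.4%): RNU4-1, RNU4-2, SNORA23, SNORA53, SNORA8 and SNORA12 were higher and SNORA71D was lower. SNORA8 and SNORA12 were the 2 tested members that reached the filter's level of 0.878 CPM in no control library, so they passed the filter only through the DKO, in which they were high, and their calls are given as a description. The other 60 did not pass, and the median log2 fold change of the tested members was -0.04, beside 0.0015 for all genes tested. Values were positive for 32 members and negative for 35. At an unadjusted p under 0.05 there were 15 members, 10 higher and 5 lower, and 20.2% of all genes met that limit. For 20 of the 67 (29.9%), all DKO libraries lay on 1 side of all control libraries, compared with 49.8% of all genes tested.

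**Figure D3:**
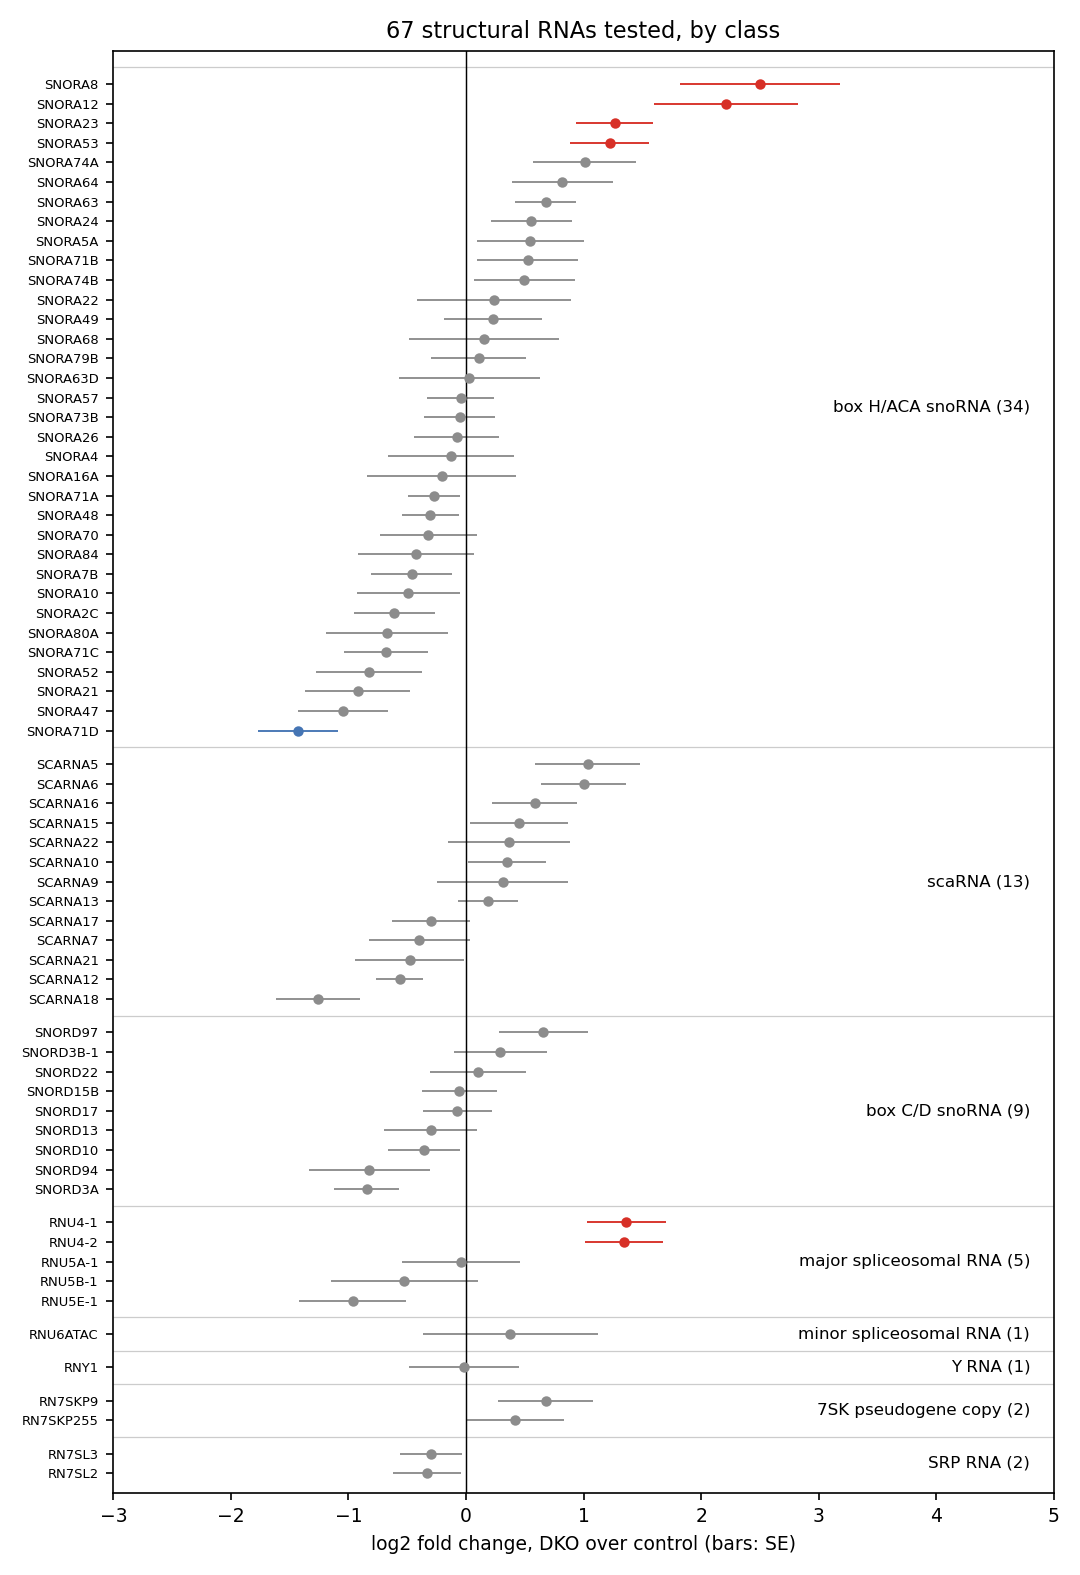
Log2 fold change of DKO over control for each of the 67 tested members (points, with bars of 1 SE), grouped by class, with members past an adjusted p under 0.05 in red (higher) or blue (lower). The 6 higher members lie between 1.22 and 2.5, the lower one at -1.43, and the other H/ACA RNAs, the C/D RNAs and the scaRNAs fall on both sides of 0.

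The 2 U4 genes had the highest levels among the members that passed. RNU4-1 measured 81.0 and 136 CPM in control and 157 and 402 CPM in DKO, from 804 to 6482 counts a library. RNU4-2 measured 76.9 and 134 CPM in control and 156 and 379 CPM in DKO. Both genes were lowest in control replicate 1 and highest in DKO replicate 2, and DKO replicate 1 lay only slightly above control replicate 2. Mean levels were 108 ± 38.9 and 279 ± 173 CPM for RNU4-1 (SD, n = 2; log2 fold change 1.36, SE 0.34, edgeR adjusted p = 0.0294). For RNU4-2 the log2 fold change was 1.34 (SE 0.33, edgeR adjusted p = 0.0293). The ratio of the genes' counts stayed between 1.01 and 1.06 in the 4 libraries. Because the genes are near-identical copies with parallel values, they are not taken as independent of each other. With them summed to 1 feature, and the 7SL genes and other near-identical copies summed likewise, 5 features were higher and 1 was lower. Without DKO replicate 2 neither passed (log2 fold change 0.53 and 0.56), and DESeq2 gave values of the same size without a call (1.36 and 1.34, adjusted p = 0.340 and 0.338).

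The 3 U5 genes, whose RNA contacts the exons at the catalytic centre of the spliceosome, did not pass. RNU5E-1 measured 2.02 and 5.55 CPM in control and 1.26 and 2.54 CPM in DKO (log2 fold change -0.96, edgeR adjusted p = 0.252). RNU5A-1 gave -0.04 and RNU5B-1 gave -0.52, each from 20 counts or fewer in every library. All 3 were higher in replicate 2 than in replicate 1 of either clone. RNU6ATAC, the U6 counterpart in the minor spliceosome, held 20, 1, 7 and 28 counts in control 1, control 2, DKO 1 and DKO 2, a spread within each clone that covers the difference between them.

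Of the 48 H/ACA RNAs, 34 were tested, 4 were higher and 1 was lower, with a median log2 fold change of -0.05, beside 2.24% of all genes higher and 3.14% lower. Without SNORA8 and SNORA12, which entered the test only through the DKO, SNORA23 and SNORA53 remain as the higher ones. SNORA23 measured 6.25 and 3.18 CPM in control and 8.79 and 13.4 CPM in DKO, so that the clones did not overlap (log2 fold change 1.27, SE 0.33, edgeR adjusted p = 0.0365). SNORA53 measured 4.13 and 2.12 CPM in control and 6.57 and 7.75 CPM in DKO (log2 fold change 1.22, SE 0.33, edgeR adjusted p = 0.0456). These RNAs rest on 39 to 216 and on 26 to 125 counts a library. SNORA8 held 7 and 2 counts in control and 10 and 57 in DKO, a difference carried mostly by DKO replicate 2 (log2 fold change 2.5, SE 0.68, edgeR adjusted p = 0.0449). SNORA12 held 4 and 2 counts in control and 15 and 19 in DKO (log2 fold change 2.21, SE 0.61, edgeR adjusted p = 0.0480), and its control libraries lay at or near the 3 counts that a count of 0 still allows. DESeq2 called none of SNORA53, SNORA8 and SNORA12 (adjusted p = 0.0822, 0.0961 and 0.219). Upper-quartile factors did not call SNORA53 or SNORA12 (edgeR adjusted p = 0.0504 and 0.0526), and limma-voom did not call SNORA8 (adjusted p = 0.0694).

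SNORA71D was the member that fell. It measured 5.24 and 6.28 CPM in control and 1.55 and 2.60 CPM in DKO, from 52, 77, 16 and 42 counts, and the clones did not overlap (log2 fold change -1.43, SE 0.34, edgeR adjusted p = 0.0239). Its neighbours in SNHG17, which share the host but differ in sequence as shown above, did not pass. SNORA71C measured 3.73 and 7.83 CPM in control and 2.90 and 4.28 CPM in DKO (log2 fold change -0.68, SE 0.36). With the replicate number as a block, SNORA71C was called lower as well (-0.69, edgeR adjusted p = 0.0279), beside 2023 genes lower over all genes. SNORA71A, the most abundant of the 4 in SNHG17, measured 20.7 and 25.9 CPM in control and 20 and 18.7 CPM in DKO (log2 fold change -0.27). SNORA71B gave 0.52 from 13 to 43 counts a library. SNORA71C and SNORA71B are named here after their values were seen, and the differences between the 4 copies were not tested.

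The more abundant H/ACA RNAs did not pass. SNORA73B measured 392 and 586 CPM in control and 292 and 649 CPM in DKO, with the control libraries inside the wider range of the DKO libraries (log2 fold change -0.05). SNORA63 measured 25.2 and 20.6 CPM in control and 25.7 and 47.0 CPM in DKO, and only DKO replicate 2 stood apart (0.68, edgeR adjusted p = 0.155). SNORA57 gave -0.04 and SNORA48 gave -0.30. At the lower end, SNORA47 measured 3.12 and 6.45 CPM in control and 1.93 and 2.66 CPM in DKO (-1.05, edgeR adjusted p = 0.129), and SNORA21 gave -0.92 with an adjusted p of 0.261 in edgeR.

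None of the 13 scaRNAs tested passed in edgeR, beside 5.37% of all genes, and 0 were called by DESeq2 or limma-voom. At an unadjusted p under 0.05 there were 4 (2 higher and 2 lower), beside 20.2% of all genes. Other settings did call some scaRNAs: without a filter on low counts SCARNA5, SCARNA6 and SCARNA18 passed (edgeR adjusted p = 0.000762, 0.00173 and 0.00587), as did SCARNA1, which does not pass that filter. Over all genes, 561 were higher and 633 lower without the filter, beside 299 and 419 with it. Without control replicate 1 these RNAs passed together with SCARNA7 and SCARNA10, and without DKO replicate 1 SCARNA5 and SCARNA6 did. Each of these fits leaves 1 clone with a single library, and the number called over all genes changed in them as well. With spike-in totals SCARNA18 passed, beside 22 genes higher and 307 lower over all genes. SCARNA7 was called in opposite directions, higher without control replicate 1 (0.76) and lower without control replicate 2 (-1.06). With all libraries and the filter, SCARNA18 came closest, at 4.13 and 5.38 CPM in control and 1.45 and 2.42 CPM in DKO (log2 fold change -1.26, SE 0.36, edgeR adjusted p = 0.0515). The most abundant by CPM, SCARNA12, measured 87.5 and 79.0 CPM in control and 49.5 and 62.9 CPM in DKO (-0.56, edgeR adjusted p = 0.121). For both, each DKO library lay below each control library. SCARNA5 and SCARNA6 lie in the same host, ATG16L1, and showed the same order of libraries. SCARNA5 measured 24.2, 6.53, 17.9 and 43.8 CPM and SCARNA6 18.3, 7.18, 17.7 and 32.5 CPM in control 1, control 2, DKO 1 and DKO 2, so DKO 2 was the highest, control 2 the lowest, and control 1 lay above DKO 1 for either RNA. Their log2 fold changes were 1.03 and 1.00 (edgeR adjusted p = 0.210 and 0.125). SCARNA7 measured 58.7 and 16.7 CPM in control and 39.6 and 17.9 CPM in DKO, higher in replicate 1 of either clone (-0.40, edgeR adjusted p = 0.658).

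None of the 9 C/D RNAs tested passed in edgeR, beside 5.37% of all genes, and 0 were called by DESeq2 or limma-voom. At an unadjusted p under 0.05 there was 1, beside 20.2% of all genes. The RNA at that limit was SNORD3A, a gene of U3 RNA, which is needed for early cleavage of the ribosomal RNA precursor. It measured 115 and 174 CPM in control and 54.6 and 106 CPM in DKO (log2 fold change -0.84, SE 0.28, edgeR adjusted p = 0.0921), and control replicate 1 lay just above DKO replicate 2. It was called lower in edgeR without a filter (adjusted p = 0.00494), a setting in which 633 genes were lower over all genes. It was also called lower without control replicate 1 (log2 fold change -1.11) and without DKO replicate 2 (-1.41), fits in which the number called over all genes changed as well. SNORD17 gave -0.07 and SNORD10 gave -0.36, both with overlapping clones. SNORD97 was at the upper end with 0.66 and SNORD94 near the lower end with -0.82, neither past the threshold (edgeR adjusted p = 0.351 and 0.400). Both passed without control replicate 1 (log2 fold change 1.413 and -1.315).

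The 7SL genes did not pass, though both were called lower with the replicate number as a block (edgeR adjusted p = 0.0207 for RN7SL2 and 0.0120 for RN7SL3). With that block 2023 genes were lower over all genes, beside 419 in the fit reported. RN7SL2 measured 6872 and 8472 CPM in control and 4469 and 7693 CPM in DKO, so that DKO replicate 1 was low and DKO replicate 2 lay between the control libraries (log2 fold change -0.34, SE 0.29, edgeR adjusted p = 0.561). RN7SL3 measured 232 and 274 CPM in control and 137 and 275 CPM in DKO (-0.30), again with DKO replicate 1 low. The ratio of their counts was 27.9 to 32.7 in the 4 libraries, and the 2 sequences are 96% identical. RNY1, a Y RNA bound by the Ro protein, gave -0.02 from 9 to 22 counts a library. The 7SK copies RN7SKP9 and RN7SKP255 gave 0.68 and 0.42 without passing, and RN7SKP203 was not tested. RMRP, the RNA of the RNase MRP particle, measured 4659 and 4065 CPM in control and 5257 and 6141 CPM in DKO, and its libraries did not overlap (0.39, SE 0.25, edgeR adjusted p = 0.412).

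Large differences also stood between libraries of the same clone. Between the control libraries, 16 of the 67 tested members (23.9%) differed by at least 2-fold on CPM + 0.5, compared with 2.22% of all genes tested. Between the DKO libraries, 15 members (22.4%) did so, compared with 0.756% of genes. Among features with at least 100 counts in all, 10 of 45 members (22.2%) differed by at least 2-fold between the control libraries, beside 1.36% of genes, and 9 of 45 (20%) between the DKO libraries, beside 0.413% of genes. With at least 1000 counts, the shares were 2 of 14 members (14.3%) beside 0.558% of genes in control and 7 of 14 (50%) beside 0.319% in DKO.

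The direction of this spread was shared by many members. DKO replicate 2 exceeded DKO replicate 1 in 55 of the 67 tested members, with a median log2 ratio of 0.62, beside 0.0042 for all genes tested. Control replicate 2 exceeded control replicate 1 in 30 of 67, with a median of -0.23. DKO replicate 2 was the highest library for 27 members, and the lowest was DKO replicate 1 for 28 and control replicate 2 for another 28. Members split in how the control libraries differed: RNU4-1 (0.74), RNU4-2 (0.80) and SNORA73B (0.58) were higher in control replicate 2, and SCARNA5 (-1.81), SCARNA7 (-1.78) and SCARNA6 (-1.30) were higher in control replicate 1, as log2 ratios of replicate 2 to replicate 1. In the DKO the same ratio was 1.35, 1.28 and 1.15 for the first group and 1.27, -1.13 and 0.86 for the second.

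**Figure D4:**
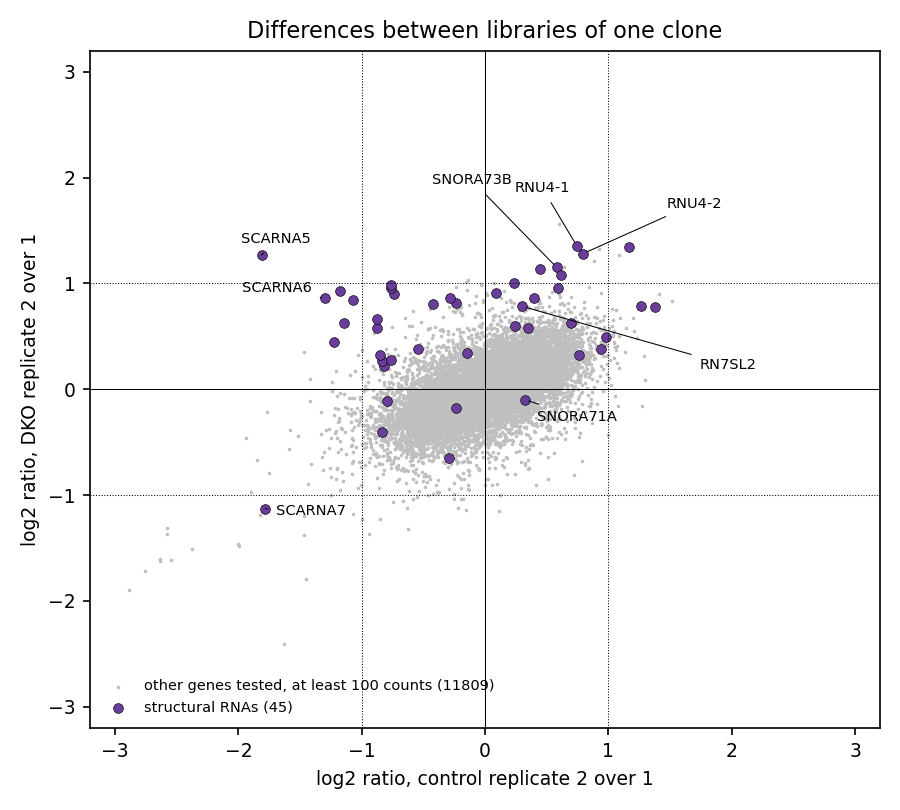
Log2 ratio of replicate 2 to replicate 1 (CPM + 0.5) in the control clone (horizontal) and the DKO clone (vertical) for the 45 structural RNAs (purple) and the 11809 other tested genes (grey) with at least 100 counts, with dotted lines at 2-fold. The structural RNAs lie mostly above 0 on the vertical axis and around the edge of the cloud of other genes.

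With so few libraries, the calls rested on single ones. When each library was left out in turn, the number of members called changed, as did the number called over all genes. The members' median log2 fold change was 0.08 without control replicate 1 and 0.03 without control replicate 2. It was 0.22 without DKO replicate 1 and -0.39 without DKO replicate 2. Of the 7 members that passed, RNU4-1, RNU4-2 and SNORA71D passed in 3 of these 4 fits, SNORA23 and SNORA8 in 2, and SNORA12 and SNORA53 in 1. SNORA71D ranged from -1.90 to -1.14 and was not called without DKO replicate 1. When spike-in totals replaced the gene totals as library sizes, the median of all genes tested fell by 0.68 on the log2 scale, 22 genes were higher and 307 lower, and no member was higher. On that scale SNORA71D (-2.20), SCARNA18 (-2.04) and SNORA47 (-1.85) were lower, and RNU4-1 was at 0.52, which is 1.20 above the median of all genes.

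Host genes were compared because most guide RNAs come from their introns. A host on the same strand was found in the table for 65 members, in 54 different genes, of which 50 members lay in protein-coding and 15 in noncoding hosts. Where several genes contained a member, the one with the most counts was taken, such as RCC1 and not SNHG3 for SNORA73B. The split between host types depends on this choice. Of the 51 hosts tested, 0 were higher by edgeR and 2 were lower: CHD3 (log2 fold change -0.88, edgeR adjusted p = 0.0145) and RPSA (-1.10, edgeR adjusted p = 0.0173), beside 3.14% of all genes lower. At an unadjusted p under 0.05, 6 hosts were higher and 8 lower, beside 20.2% of all genes, and DESeq2 called 1 host higher and limma-voom 0. The number of hosts called changed with the library left out, as it did over all genes. The scaRNA in CHD3, SCARNA21, gave -0.48 without passing, and SNORA6 in RPSA was not tested. RPSA, a ribosomal protein gene, is named here after its value was seen.

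None of the hosts of the 5 H/ACA RNAs that passed was itself called. IPO7, an import receptor gene, gave 0.20 beside 1.27 for SNORA23, and SLC25A3, a mitochondrial phosphate carrier gene, gave -0.08 beside 1.22 for SNORA53. SNHG17 gave -0.15 beside -1.43 for SNORA71D. TAF1D, which encodes a subunit of an RNA polymerase I factor, gave 0.43 beside 2.5 for SNORA8, and CWF19L1 gave 0.01 beside 2.21 for SNORA12. SNORA8 and SNORA12 entered the test only through the DKO, in which they were high. Their values beside those of their hosts are thus a description only. ATG16L1, an autophagy gene, gave -0.50 beside the positive values of SCARNA5 and SCARNA6. Over the 47 pairs with both tested, the sign was the same in 25, and the member had the larger absolute log2 fold change in 37. Members mostly rested on fewer counts and had larger SEs than their hosts, which by itself gives larger absolute values. These pair counts thus cannot tell whether members changed more than their hosts. The relation between member and host was not tested. Of the 83 members with a position, 30 (36.1%) overlap an annotated exon of a gene on the same strand, SNORA53 and SNORA8 among them. Some of these genes are themselves small RNA entries, such as MIR3651 for SNORA84. For the 30, reads of the gene and of the member cannot be told apart in the counts. Whether the counts of members in introns, such as SNORA23, SNORA12 and SNORA71D, include reads of unspliced host RNA was not tested.

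**Figure D5:**
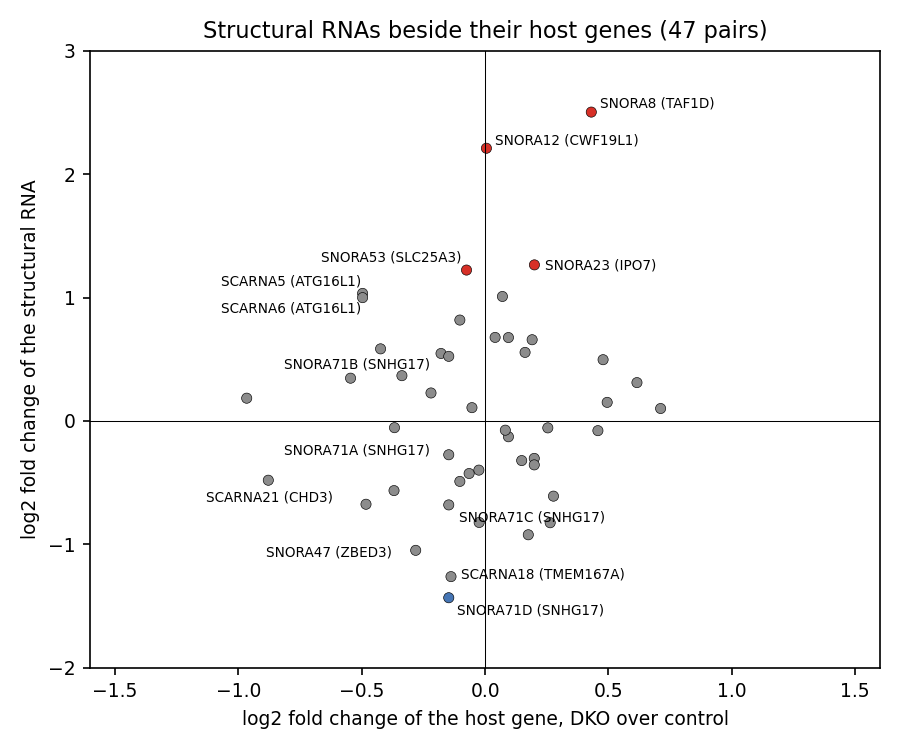
Log2 fold change of DKO over control for 47 structural RNAs (vertical) against that of the gene that contains them (horizontal), with members past an adjusted p under 0.05 in red (higher) or blue (lower). The hosts of the 5 coloured members lie between -0.15 and 0.43, and the members of SNHG17 spread from -1.43 to 0.52 above a single host value. Of the coloured members, SNORA8 and SNORA12 passed the filter on low counts only through the DKO.

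The proteins that bind, build or trim these RNAs were taken as 18 lists of 160 genes, of which 159 were tested. By edgeR 0 were higher and 6 were lower (3.77%, near the 3.14% of all genes that were lower), with a median log2 fold change of -0.03. At an unadjusted p under 0.05 there were 11 higher and 13 lower, beside 20.2% of all genes, and DESeq2 and limma-voom called 0 higher as well. The core proteins of C/D and H/ACA particles did not pass. FBL, the methyltransferase of C/D particles, measured 236 and 400 CPM in control and 223 and 322 CPM in DKO (-0.22), and NOP10, an H/ACA core protein gene, measured 28.0 and 27.1 CPM in control and 40.2 and 48.8 CPM in DKO (0.69, edgeR adjusted p = 0.0623). COIL, which encodes the Cajal body protein coilin, gave 0.53, and GEMIN8 of the SMN complex, which loads Sm proteins onto spliceosomal RNAs, gave 0.78 (edgeR adjusted p = 0.170 and 0.0888). PRPF6, a protein of the particle that holds U4, gave -0.52 (edgeR adjusted p = 0.210).

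The 6 genes that fell belong to 5 lists. TEP1, which encodes a protein shared by vault and telomerase particles, was at 35.9 and 50.7 CPM in control and 22.5 and 16.4 CPM in DKO (-1.16, edgeR adjusted p = 0.0112). SKIV2L2 (MTR4), the helicase that feeds RNA to the nuclear exosome, was at 114 and 117 CPM in control and 63.1 and 69.2 CPM in DKO (-0.80, edgeR adjusted p = 0.0234). ICE1 and SNAPC4, which act in transcription of spliceosomal RNA genes, fell by 0.78 and 0.73 on the log2 scale (edgeR adjusted p = 0.0316 and 0.0466). POP1 of RNase P and MRP fell by 0.72, and BDP1 of the RNA polymerase III machinery by 0.84 (edgeR adjusted p = 0.0437 and 0.0438). In all 6 genes the clones did not overlap, as in 49.8% of all genes tested. The 6 were picked by the test on the same libraries, so this adds no support to the calls. With spike-in totals 1 gene of the lists was lower, beside 307 of all genes. The number of list genes called also changed with the library left out, as it did over all genes.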

How the data were processed

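The table that the authors deposited gives raw read counts, as whole numbers, for each gene in each library. The submitters' processing notes name hg38, STAR 2.5.3a, featureCounts (Subread 1.6.3) and DESeq2. The annotation, the strand setting and the multi-match rule were not given in the sources used here. The members and gene lists were chosen with earlier results of these data known. Named are all members past the threshold, up to 5 of the highest CPM per class, the 3 highest and lowest fold changes of SNORA, SNORD and SCARNA, their hosts, and from each protein list the genes past the threshold and the one with the lowest adjusted p.

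The 92 ERCC rows were left out of library sizes. DKO and control were compared in R 4.3.3 with edgeR 4.0.16 (filterByExpr, TMM, quasi-likelihood test, Benjamini-Hochberg over all 13359 genes, threshold 0.05), checked on simulated counts. CPM values use TMM-scaled library sizes. Alternatives used DESeq2 1.42.0, limma 3.58.1 (voom), other scalings, no filter, a replicate block, summed copies and each library left out. Symbols were matched to GENCODE release 29 (hg38). Libraries of a clone differed beyond sampling noise (chi-square per degree of freedom 33.6 for control and 27.1 for DKO). Counts carry no molecular identifiers, so intervals cover counting error only. A count of 3 corresponded to 0.186 to 0.302 CPM.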

Additional observations from a re-analysis of the deposited data

How the results depend on the processing

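The depth limits what can be said of the 40 members with under 100 counts, and with 2 libraries of 1 clone each no exact permutation p can fall below 0.333. DESeq2 called 1 member and 1 host gene higher. With spike-in totals, 22 genes were higher, 0 members higher and 3 lower, 1 gene of the protein lists and 1 host lower, the members' median was -0.78, and the ratio of their share per spike-in count, DKO over control, was 0.4995 (exact permutation p = 0.333). Without a filter, 561 genes were higher and 633 lower, 9 members higher and 4 lower, and 1 gene of the protein lists and 1 host higher. Upper-quartile factors, library sizes without the members and mitochondrial genes, limma-voom and summed copies kept each of these counts within 1.5 times. Leaving out each library in turn gave 105 to 1028 genes higher and 107 to 1144 lower, 0 to 16 members higher and 0 to 8 lower, 0 to 11 genes of the protein lists higher and 0 to 15 lower, 0 to 4 hosts higher and 0 to 4 lower, and medians of the members from -0.39 to 0.22. A lone library was then assumed to vary like the other clone's. A change of sign was counted where a gene was called on either side, and it occurred for SCARNA7, whose values with a library left out ran from -1.07 (without DKO replicate 1) to 0.76 (without control replicate 1).

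The replicate numbers are shared by the clones but the labels state no pairing. Deviations of same-numbered libraries correlated at 0.51 over genes tested and 0.39 over members. With the number as a replicate block, 1998 genes were higher and 2023 lower, 12 members higher and 11 lower, 26 genes of the protein lists higher and 24 lower, and 8 hosts higher and 11 lower. The members called with the block included the scaRNAs SCARNA5, SCARNA6, SCARNA12 and SCARNA18 and the C/D RNAs SNORD3A, SNORD94 and SNORD97. They also included RN7SL2, RN7SL3, RNU5E-1 and the H/ACA RNAs SNORA2C, SNORA24, SNORA47, SNORA63, SNORA71C and SNORA74A. None of these passed in the fit reported. Outside the set, RMRP was called higher with the block (0.39, edgeR adjusted p = 0.0178). The cause of these differences was not tested.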
